A study of Homo sapiens with 18 samples.

Results

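The comparison described here is the change over time in the response of Caco-2 cells to riboflavin depletion. It is the difference between depleted and control cells at 72 h minus the same difference at 24 h. It uses 12 of the 18 arrays of the series, in 4 groups of 3: depleted cells at 72 h, control cells at 72 h, depleted cells at 24 h and control cells at 24 h. Caco-2 is an established human line from a colon carcinoma that takes on features of gut epithelium in culture. Depleted cells were kept in DMEM without riboflavin and control cells in DMEM, both with fetal calf serum, penicillin and streptomycin, and the labels do not say whether dialysed serum was used for the cells on these arrays. RNA was measured on Affymetrix arrays, and the values are MAS5 signals on a linear scale. The samples are numbered so that each run of 6 holds 1 array of every medium at 24, 48 and 72 h, and these 3 sets pair the groups. Nothing in the labels says whether the sets were separate cultures, so each p-value reflects only how far these arrays spread. By its title, the series asks how lack of riboflavin impairs the proliferation of gut cells.

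Riboflavin, vitamin B2, is phosphorylated to FMN and adenylated to FAD, the cofactors of dehydrogenases, oxidases and reductases in mitochondria and elsewhere. Several stress programmes can be read from RNA. ATF4 drives amino acid synthesis and transport genes when amino acids or mitochondrial function fall short, NRF2 drives glutathione and thioredoxin genes under oxidants, and MTF1 drives metallothioneins when free zinc rises. AP-1 and NF-kB drive early response and inflammatory genes, and YAP with TEAD factors drives genes of spreading and matrix contact. Epithelial cells in culture also change with time in the dish as they become confluent, so a difference between media can change because the depleted cells moved, because the control cells moved, or both.

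Arrays of set 2 stood apart, with median signals of 25.7 to 31.3 and highest signals of 27380.2 to 31409.8, against medians of 18.4 to 23.3 and highest signals of 6904.8 to 8574.5 in sets 1 and 3. In set 2 the numbers of the depleted and control arrays at 24 h and of the control array at 48 h carry a suffix. No other array has it, and the labels do not explain it. Within that set it separates the 24 h from the 72 h arrays of each medium. With 3 arrays a group, the precision of each value is limited. All values were compared on the scale log2(signal + 16), which understates the change of dim genes, and each fit held a term for the set. A gene was represented by its brightest probe set, and effects below are log2 differences on that scale. Because each array was scaled to the same trimmed mean, each change is relative to the rest of the RNA on that array.

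The depletion effect differed between 72 h and 24 h for 653 of 12319 genes (5.3%) by limma with Benjamini-Hochberg adjustment at 0.05. It was higher at 72 h for 226 genes (1.83%) and lower for 427 (3.47%), and its median over all genes was -0.04. The counts of list members below stand beside these shares of all genes. All lists were chosen with earlier results of these data known, so their counts are not independent evidence of a direction. Counted by probe set, 1251 of 27307 differed (4.58%). The effect itself passed the test for 1831 genes at 72 h (14.9%) and for 365 at 24 h (2.96%). Between 24 h and 72 h, 1354 genes changed in depleted cells (11%) and 194 in control cells (1.57%). These counts depended on the set term: without it 88 genes and 176 probe sets differed. Leaving out 1 array gave 640 to 1350 probe sets, and leaving out a whole set gave 2 without set 1, 582 without set 2 and 19 without set 3.

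Genes that passed the test were sorted by their effects at both times. The effect grew for 476 genes, which means that it passed the test at 72 h and was larger there; among these 176 were higher and 300 lower in depleted cells at 72 h. It faded for 80 genes, which passed at 24 h and had the smaller effect at 72 h, and of these 63 were higher and 17 lower in depleted cells at 24 h. It reversed for 28 genes, with opposite signs past the test at both times, 8 of them higher and 20 lower in depleted cells at 72 h. The other 69 passed the test of the difference but fell in none of these classes. Beyond 4 of the 300 growing falls, no gene with a growing effect had passed the test at 24 h.

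Which cells moved differed between the classes. Of the 653 genes, 433 changed over time in depleted cells only, 69 in control cells only, 34 in both in opposite directions, 1 in both in the same direction and 116 in neither by the test. By the test, growing effects lay mostly with the depleted cells: 122 of 176 growing rises and 231 of 300 growing falls changed in depleted cells only, against 13 and 15 in control cells only. Median changes were 0.80 in depleted and -0.37 in control cells for growing rises, and -0.84 and 0.33 for growing falls. Fading rises were split evenly, with 26 of 63 moving in depleted cells only and 26 in control cells only. Among the 8 upward reversals the control cells had changed in every case, 5 times alone and 3 times opposite to the depleted cells, and none changed in depleted cells only. The size of the movement was larger in depleted than in control cells for 72.9% of the 653 genes and for 57.3% of all genes. These counts describe the genes that passed the test and were not tested themselves, and the same arrays define the classes and the movements. The p-values were adjusted separately for each comparison, and far fewer changes passed in control cells, so a control change met a stricter bar. DENND5B, with a control change of 0.70 (SE 0.17, adjusted p = 0.0735 in limma), counts as depleted only. Such a count does not show that control cells stood still.

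**Figure D1:**
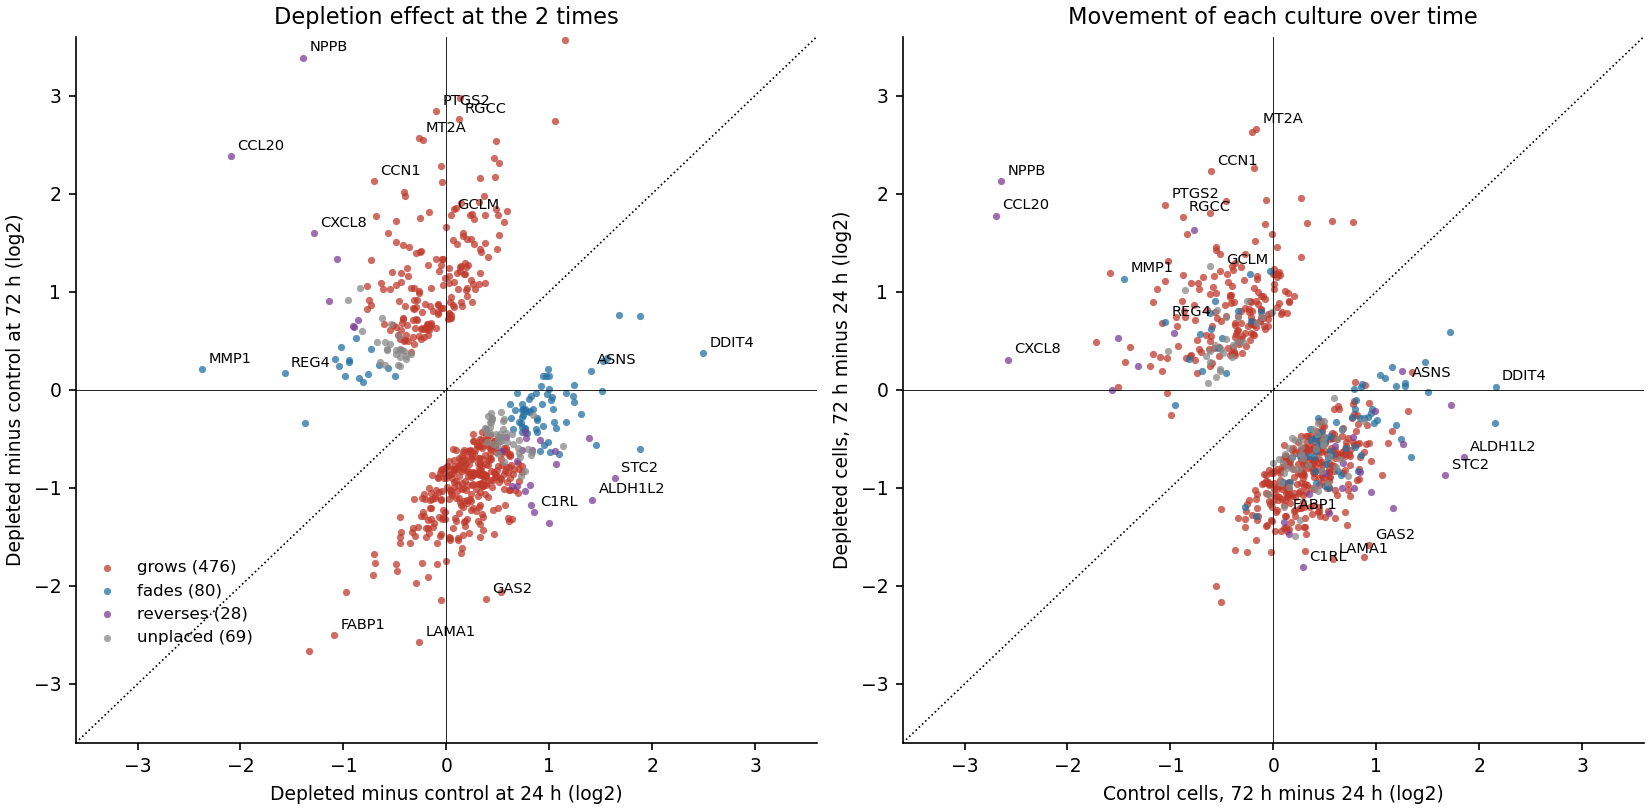
Each point is 1 of the 653 genes whose depletion effect differed between 72 h and 24 h. Left, the effect (depleted minus control, log2) at 72 h on the vertical axis and at 24 h on the horizontal axis; right, the change from 24 h to 72 h in depleted cells on the vertical axis and in control cells on the horizontal axis. Colours mark growing (476), fading (80), reversing (28) and other (69) effects, and the dotted line marks equal values. NPPB and CCL20 lie at the upper left of both panels, and DDIT4 and ASNS lie at the right with little change in depleted cells.

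Inflammatory and early response genes had a higher effect at 72 h than at 24 h. Of 17 measured genes of NF-kB and inflammation, 8 had a higher effect at 72 h and 0 a lower one, with 1 lower at an unadjusted p under 0.05, and the median difference was 1.18. Of 24 AP-1 and immediate early genes 13 were higher and 0 lower, also 0 at an unadjusted p under 0.05, with a median of 1.28. With no set term in the fit, 3 and 5 of these genes passed. The median change over time was 0.33 in depleted cells and -0.73 in control cells for the first list, and 0.47 and -0.56 for the second.

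NPPB, which encodes brain natriuretic peptide, showed the largest difference of all genes. Its signals were 910.2, 796 and 1236 in depleted cells and 53.9, 75.1 and 113 in control cells at 72 h, given here and throughout for sets 1, 2 and 3. At 24 h they were 236, 166 and 228 in depleted cells and 717, 319.6 and 801 in control cells. Depleted cells thus lay above all control arrays at 72 h and below all of them at 24 h. The effect was 3.39 at 72 h and -1.39 at 24 h, a difference of 4.78 (SE 0.36, adjusted p = 3.08e-05), and the change over time was 2.13 in depleted cells and -2.64 in control cells.

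CCL20, a chemokine that draws CCR6-bearing lymphocytes and dendritic cells, had the same pattern. Depleted cells gave 396, 263 and 173 at 72 h, where control cells gave 67.8, 11.2 and 51.3. At 24 h depleted cells gave 128, 21.5 and 84.1 and control cells 383, 342 and 278. The groups did not overlap at either time, and their order was opposite. The effects of 2.38 at 72 h and -2.09 at 24 h differed by 4.48 (SE 0.54, adjusted p = 0.00106).

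In CXCL8, which encodes the neutrophil chemokine interleukin-8, the control cells alone changed by the test. It stood at 59.6, 79.1 and 20.9 in depleted cells and 8.6, 4.5 and 3.0 in control cells at 72 h. The values at 24 h were 37.9, 71.9 and 13.6 in depleted cells and 134, 206 and 44.6 in control cells. The control signals at 72 h were the lowest of the 4 groups and under the signal of 19.6 that served as the filter for mean levels, while depleted cells overlapped between the times. Its change was 0.31 in depleted cells and -2.57 in control cells, and the effect differed by 2.88 (SE 0.39, adjusted p = 0.00211). CXCL2, another neutrophil chemokine, and IER3, an early response gene that modulates cell survival, followed it, with control changes of -1.31 and -1.57 and depleted changes of 0.24 and 0.00. CXCL1, CXCL2, CXCL3 and CXCL8 are related in sequence, and the probe sets of CXCL2 and CXCL8 are of the kind that can also match other transcripts. When the fit had no set term, CXCL8 (adjusted p = 0.0775) and CXCL2 (0.0781) did not pass.

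The promoter of CXCL8 is shown for the NF-kB list, of which 8 of 17 genes were higher by the test. It spans chr4:73740319-73740618 on the plus strand of GRCh38.p14 (RefSeq, 250 bases before the start of the gene to 50 after it). Capitals mark a match to the kappaB pattern GGAANNNCC, searched on both strands, and this pattern was added to the search after the values were seen.
CXCL8: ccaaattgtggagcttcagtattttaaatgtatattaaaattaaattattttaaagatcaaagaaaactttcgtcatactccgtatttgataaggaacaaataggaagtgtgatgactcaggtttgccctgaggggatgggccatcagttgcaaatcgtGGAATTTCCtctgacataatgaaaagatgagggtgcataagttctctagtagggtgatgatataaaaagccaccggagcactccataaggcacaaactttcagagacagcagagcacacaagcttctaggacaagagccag
This pattern stood in the promoters of 12 of the 16 list members with a RefSeq promoter, against 20.1% of 35116 promoters. A match describes letters and is not a bound site.

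PTGS2, the inducible cyclooxygenase that starts prostaglandin synthesis, moved in both media. Its signals were 1153, 1094 and 894 in depleted cells and 109, 148 and 141 in control cells at 72 h. At 24 h they were 333, 359.7 and 162 in depleted cells and 285, 375 and 226 in control cells, which overlapped. The effect of 2.84 at 72 h and -0.10 at 24 h differed by 2.94 (SE 0.33, adjusted p = 0.00071). EDN1, the vasoactive peptide endothelin-1, behaved alike: it rose by 1.19 in depleted cells, changed by -1.59 in control cells, and its effect differed by 2.78 (SE 0.29, adjusted p = 0.000374).

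Among the AP-1 and early response genes, FOSL1, a subunit of AP-1, differed by 2.21 (SE 0.36, adjusted p = 0.00512). It measured 32.5, 74.1 and 71.4 in depleted cells and 1.2, 1.4 and 19.8 in control cells at 72 h, where 2 of the control arrays were far under 19.6. The phosphatases that switch off MAP kinases gave differences of 1.90 for DUSP4, 1.98 for DUSP5, 2.06 for DUSP6 and 1.61 for DUSP1. SPRY2, a feedback inhibitor of receptor tyrosine kinases, and EREG, a ligand of the EGF receptor, differed by 1.37 and 1.30. The AP-1 subunit FOS differed by 1.37, the related factor ATF3 by 1.22, the zinc finger factor KLF6 by 1.44 and PHLDA1, an early response gene, by 1.25. MYC and IER3 completed the 13 genes.

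A related group of late epithelial genes rose in depleted cells while control cells fell or changed little. RGCC, a regulator of the cell cycle, read 1649, 1397 and 1754 in depleted cells and 211, 202 and 253 in control cells at 72 h, and 492, 355 and 549 in depleted cells and 515, 286 and 501 in control cells at 24 h. The groups were far apart at 72 h and overlapped at 24 h, and the effect differed by 2.64 (SE 0.23, adjusted p = 9.76e-05). A second RGCC probe set gave 1.51 without passing the test (adjusted p = 0.112). GPRC5A, an orphan receptor of epithelia, differed by 2.05 (SE 0.21, adjusted p = 0.000374), and EMP1, an epithelial membrane protein, by 2.41 (SE 0.41, adjusted p = 0.00664). ANXA1, a calcium-dependent phospholipid-binding protein, differed by 1.37 (SE 0.21, adjusted p = 0.00345). Of the 16 S100 and late epithelial genes measured, 5 were higher and 1, S100P, was lower (-0.92). This list was drawn up from earlier results of these arrays and, like the other lists, is not independent evidence of its direction.

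NOX1, the NADPH oxidase of colon epithelium and itself an FAD enzyme, reversed. It gave 516, 304 and 488 in depleted cells and 197, 114 and 179 in control cells at 72 h. Its 24 h signals were 161, 113 and 111 in depleted cells and 282, 252 and 316 in control cells. Neither time had overlapping groups, and the difference was 2.40 (SE 0.22, adjusted p = 0.000168), with 1.63 in depleted cells and -0.77 in control cells. The adhesion glycoproteins CEACAM6 and CEACAM1 grew as rises, by 1.70 (SE 0.21, adjusted p = 0.00106) and 2.16 (SE 0.40, adjusted p = 0.00994). For the brightest probe set of TM4SF1, a tetraspanin-like surface protein, depleted arrays overlapped between the times (change 0.02, adjusted p = 0.928). Its control signal fell by 1.51, and the effect differed by 1.54 (SE 0.16, adjusted p = 0.000447). The 2 other TM4SF1 probe sets also passed, with 2.41 and 2.43. They changed by 0.80 and 0.83 in depleted cells and by -1.61 and -1.60 in control cells, so the probe sets disagree on whether depleted cells moved. The call of CEACAM1 was lost without the set term (adjusted p = 0.0822).

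**Figure D2:**
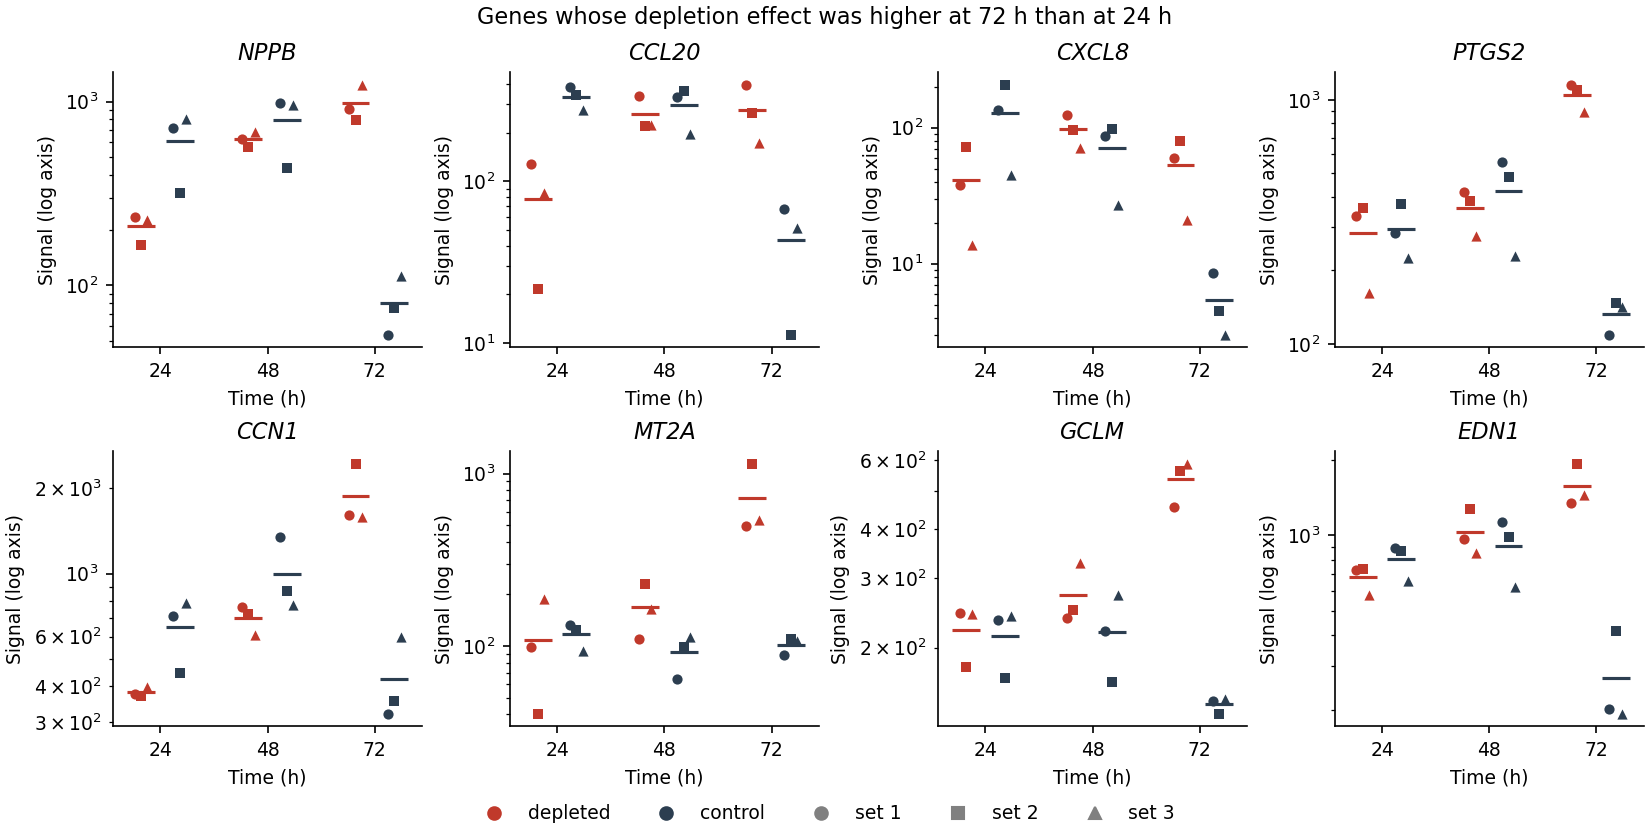
Signals (log axis) of 8 genes against time in h, depleted cells in red at the left of each time and control cells in dark blue at the right; symbols mark the sets and bars the mean of 3 arrays. In NPPB, CCL20 and CXCL8 the control arrays drop at 72 h, and in CCN1 and MT2A the depleted arrays are the highest at 72 h.

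Some targets of YAP and TEAD, the factors of spreading and matrix contact, grew as rises in depleted cells. Of 13 measured, 6 had a higher effect at 72 h and 0 a lower one, with 1 lower at an unadjusted p under 0.05. The differences were positive for 9 and negative for 4. The median difference was 0.89, and the median change over time was 0.79 in depleted cells and -0.08 in control cells. All 6 changed in depleted cells and none in control cells by the test. In the fit without a set term, 3 of the 6 passed.

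CCN1, a secreted matrix-associated protein, gave 1611, 2442 and 1589 in depleted cells and 320.2, 356 and 597 in control cells at 72 h. The earlier time gave 376, 370.1 and 398 in depleted cells and 708, 447 and 788 in control cells. Depleted cells were above all control arrays at 72 h and below all of them at 24 h, although the effect at 24 h did not pass the test (-0.70, adjusted p = 0.209). The difference was 2.83 (SE 0.40, adjusted p = 0.00251), and a second probe set gave 3.31 (adjusted p = 0.0024). ANKRD1, a nuclear ankyrin repeat protein, measured 162, 139.5 and 133 in depleted cells and 22.5, 31.6 and 41.2 in control cells at 72 h, and its effect differed by 2.45 (SE 0.36, adjusted p = 0.00304). Its depleted arrays at 24 h read 23.0, 13.0 and 17.5, 2 of them under 19.6.

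CCN2, the relative of CCN1 also called connective tissue growth factor, gave 536, 319 and 391 in depleted cells and 159, 83.0 and 174 in control cells at 72 h. Its 24 h signals were 118, 69.8 and 102 in depleted cells and 162, 104 and 159.8 in control cells, and the groups overlapped at 24 h but not at 72 h. The effect differed by 2.00 (SE 0.41, adjusted p = 0.0157) and did not pass without the set term (adjusted p = 0.115). F3, the coagulation starter tissue factor, and CRIM1, a transmembrane regulator of BMP signals, differed by 1.03 and 1.01.

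The CCN2 promoter is shown for the YAP and TEAD targets. It spans chr6:131951323-131951622 on the minus strand of GRCh38.p14 (RefSeq), with matches to the TEAD element GGAATG, searched on both strands, in capitals. The element was added to the search after the values were seen, and 1 of its 3 matches here overlaps a match to GGAANNNCC.
CCN2: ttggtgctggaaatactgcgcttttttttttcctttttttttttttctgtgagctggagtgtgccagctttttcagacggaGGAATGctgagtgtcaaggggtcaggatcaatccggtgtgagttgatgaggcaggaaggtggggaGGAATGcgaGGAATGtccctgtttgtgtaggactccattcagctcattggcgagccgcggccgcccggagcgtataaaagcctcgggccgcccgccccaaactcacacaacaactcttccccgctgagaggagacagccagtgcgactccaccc
This element stood in 4 of the 10 list members with a promoter, against 14.0% of all promoters.

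Some genes of TGF-beta and BMP signalling were also higher, with 14 differences positive and 7 negative. Of 21 SMAD and TGF-beta response genes 6 were higher and 0 lower, with 2 lower at an unadjusted p under 0.05, and the median difference was 0.46. Only 1 of the 6 passed without the set term. TGFB2, a ligand of the TGF-beta receptors, read 112, 178 and 115 in depleted cells and 14.3, 16.5 and 34.5 in control cells at 72 h, without overlap. At 24 h it read 38.5, 33.7 and 28.7 in depleted cells and 42.2, 86.6 and 31.5 in control cells, with overlap. Its difference was 2.42 (SE 0.35, adjusted p = 0.00283), and a second probe set gave 1.42 (adjusted p = 0.0883). The ligand BMP2 and the co-repressor TGIF1 differed by 1.38 (SE 0.26, adjusted p = 0.0114) and 1.10 (SE 0.21, adjusted p = 0.00982), and KLF10 and PMEPA1, feedback genes of TGF-beta, by 1.07 and 1.15. A dim TGIF1 probe set gave -0.55 (adjusted p = 0.695). CCN2 and TGFB2 stand in both lists. Without the set term BMP2 (adjusted p = 0.0869) and TGIF1 (0.435) did not pass.

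Among metallothioneins, the small proteins that bind zinc and copper, 3 grew as rises and 1 passed the test of the difference without falling in a class. Of 9 genes of the zinc response, 4 were higher and 1 lower, with a median difference of 1.09. MT2A gave 496, 1140.2 and 541 in depleted cells and 88.7, 109 and 106 in control cells at 72 h. On the 24 h arrays it stood at 98.4, 40.3 and 187 in depleted cells and 132, 123 and 93.3 in control cells. Only the depleted arrays at 72 h stood out, and the other 3 groups overlapped. The difference was 2.83 (SE 0.56, adjusted p = 0.0138), with a change of 2.66 in depleted cells and -0.17 in control cells.

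MT1H read 196, 241 and 126 in depleted cells and 6.9, 11.3 and 9.2 in control cells at 72 h. At 24 h it read 5.3, 8.4 and 46.1 in depleted cells and 9.8, 24.5 and 7.3 in control cells. Outside depleted cells at 72 h, 7 of these 9 arrays were under the filter signal of 19.6, and the difference of 2.84 (SE 0.54, adjusted p = 0.0106) is set against values near background. It ran from 1.67 to 4.09 over the settings tried, and with a pseudocount of 1 it did not pass. MT1E and MT1X differed by 1.88 (SE 0.48, adjusted p = 0.043) and 1.69 (SE 0.44, adjusted p = 0.045). The MT1 genes are nearly identical, so their probe sets may share signal and the members are uncertain one by one. The brightest probe set of SLC30A1, the zinc exporter that leads out of the cell, was lower (-0.99 (SE 0.23, adjusted p = 0.0291)), with effects of -0.22 at 72 h and 0.77 at 24 h. A second SLC30A1 probe set had the opposite sign without passing (0.65, adjusted p = 0.339), with effects of 1.23 at 72 h and 0.58 at 24 h, so the 2 probe sets disagree in direction. Leaving out single arrays removed the call of MT1E in 12 of 18 fits and that of SLC30A1 in 8, and without the set term neither passed (adjusted p = 0.18 and 0.737).

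The MT2A promoter is shown for the zinc response, in which 4 of 9 genes were higher and 1 lower by the test. It spans chr16:56608334-56608633 on the plus strand of GRCh38.p14 (RefSeq). Capitals mark 8 matches, on either strand, to the metal response element, searched as TGCACNC or TGCGCNC.
MT2A: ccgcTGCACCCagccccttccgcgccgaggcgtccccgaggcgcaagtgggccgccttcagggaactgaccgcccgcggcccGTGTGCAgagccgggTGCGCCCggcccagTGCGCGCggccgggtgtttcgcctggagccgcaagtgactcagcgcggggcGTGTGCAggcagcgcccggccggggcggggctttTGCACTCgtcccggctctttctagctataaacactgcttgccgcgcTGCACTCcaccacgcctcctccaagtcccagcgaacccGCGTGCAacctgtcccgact
The element stood in 5 of 6 list members with a promoter and in 29.6% of all promoters.

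As a list, NRF2 targets had a positive median effect at 24 h and a larger one at 72 h. The differences were positive for 23 genes and negative for 8. The list median of the effect was 0.17 at 24 h, 0.46 at 48 h and 0.84 at 72 h over 31 genes. Of these, 5 had a higher effect at 72 h and 0 a lower one, with 1 lower at an unadjusted p under 0.05, although the effect itself was higher in depleted cells for 20 genes at 72 h and for 6 at 24 h. None of the 5 had passed the test of the effect at 24 h. When the fit had no set term, 2 of the 5 passed the test of the difference.

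GCLM, the modifier subunit of the enzyme that starts glutathione synthesis, gave 455, 563 and 586 in depleted cells and 147, 136 and 148 in control cells at 72 h. The 24 h values were 244, 178 and 243 in depleted cells and 235, 168 and 241 in control cells. The groups coincided at 24 h and were apart at 72 h, and the difference was 1.73 (SE 0.23, adjusted p = 0.00185). GPX2, the glutathione peroxidase of the gut, differed by 1.80 (SE 0.26, adjusted p = 0.00283), and here both media moved, with 0.91 in depleted cells and -0.89 in control cells.

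TXNRD1, the thioredoxin reductase that carries FAD and selenium, gave 3356, 2476 and 3458 in depleted cells and 1076, 631 and 998 in control cells at 72 h. At 24 h it gave 2003, 1255 and 1741 in depleted cells and 1398, 957 and 1136 in control cells. The distance was larger at 72 h, and the effect differed by 1.28 (SE 0.20, adjusted p = 0.00374). SRXN1, which repairs peroxiredoxins, and MAFG, a partner of NRF2 on DNA, differed by 1.54 (SE 0.27, adjusted p = 0.0072) and 1.47 (SE 0.34, adjusted p = 0.026). In the fit without a set term, TXNRD1 (adjusted p = 0.159) and SRXN1 (0.0718) did not pass.

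The GCLM promoter is shown for the NRF2 targets. It spans chr1:93909381-93909680 on the minus strand of GRCh38.p14 (RefSeq), and capitals mark the 1 match, on either strand, to the antioxidant response element TGACNNNGC.
GCLM: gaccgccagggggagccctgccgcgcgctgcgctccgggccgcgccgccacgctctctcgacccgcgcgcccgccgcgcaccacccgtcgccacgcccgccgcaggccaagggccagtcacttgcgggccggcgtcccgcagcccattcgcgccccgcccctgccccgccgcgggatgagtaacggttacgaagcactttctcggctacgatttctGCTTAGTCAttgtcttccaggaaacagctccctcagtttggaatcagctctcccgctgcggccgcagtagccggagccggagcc
The element stood in 7 of 23 list members with a promoter, against 13.3% of all promoters.

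Ribosome biogenesis and MYC target genes all had positive differences, 29 of 29 measured, with a median of 0.56. The list median of the effect was -0.30 at 24 h, -0.14 at 48 h and 0.20 at 72 h. Its median change over time was 0.31 in depleted cells and -0.33 in control cells. By the test 6 passed, 15 had an unadjusted p under 0.05, and without the set term 0 passed in limma. Of the 6, 2 changed in depleted cells only and 4 in neither medium by the test. MYC, the growth factor response transcription factor, gave 2161, 969 and 3009.9 in depleted cells and 632, 334 and 685 in control cells at 72 h. In cells taken at 24 h it gave 1000.3, 653 and 1201 in depleted cells and 772, 604 and 1022 in control cells, and its effect differed by 1.55 (SE 0.24, adjusted p = 0.00352). The others were smaller, from 0.73 for the helicase DDX21 to 1.05 for the ribosome maturation factor TSR1. Leaving out single arrays left 1 to 8 members past the test. For MYC the adjusted p without the set term was 0.35.

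Glucose uptake and its first enzyme also grew as rises. SLC2A1, the glucose transporter GLUT1, read 2247, 2345 and 1970.4 in depleted cells and 563, 857 and 649 in control cells at 72 h, and 891, 1121 and 726 in depleted cells and 755, 1264 and 761 in control cells at 24 h. The groups overlapped at 24 h and were apart at 72 h, and the effect differed by 1.66 (SE 0.25, adjusted p = 0.00344). HK2, a hexokinase of growing cells, differed by 1.56 (SE 0.24, adjusted p = 0.00352), but 2 dimmer probe sets of this gene gave -0.14 and -0.13. Of 27 hypoxia and glycolysis genes, 2 were higher and 1, PFKFB4, was lower (-1.91 (SE 0.50, adjusted p = 0.0447)), with 5 higher and 1 lower at an unadjusted p under 0.05. The share that passed was 11.1%, against 5.3% of all genes. The differences were positive for 20 of the 27, with a median of 0.21. The list median of the effect itself was negative, at -0.35 at 24 h, -0.19 at 48 h and -0.19 at 72 h. At 72 h the effect was higher in depleted cells for 3 genes and lower for 3. PFKFB4 had 2 of its 3 depleted arrays at 72 h under 19.6, and 14 of 18 fits that left out an array lost it. GADD45A and GADD45B, stress genes that slow the cell cycle, differed by 1.59 (SE 0.28, adjusted p = 0.00704) and 1.66 (SE 0.34, adjusted p = 0.0157). With no set term in the fit, SLC2A1 (adjusted p = 0.0887), GADD45A (0.0535), GADD45B (0.159) and PFKFB4 (0.117) did not pass.

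**Figure D3:**
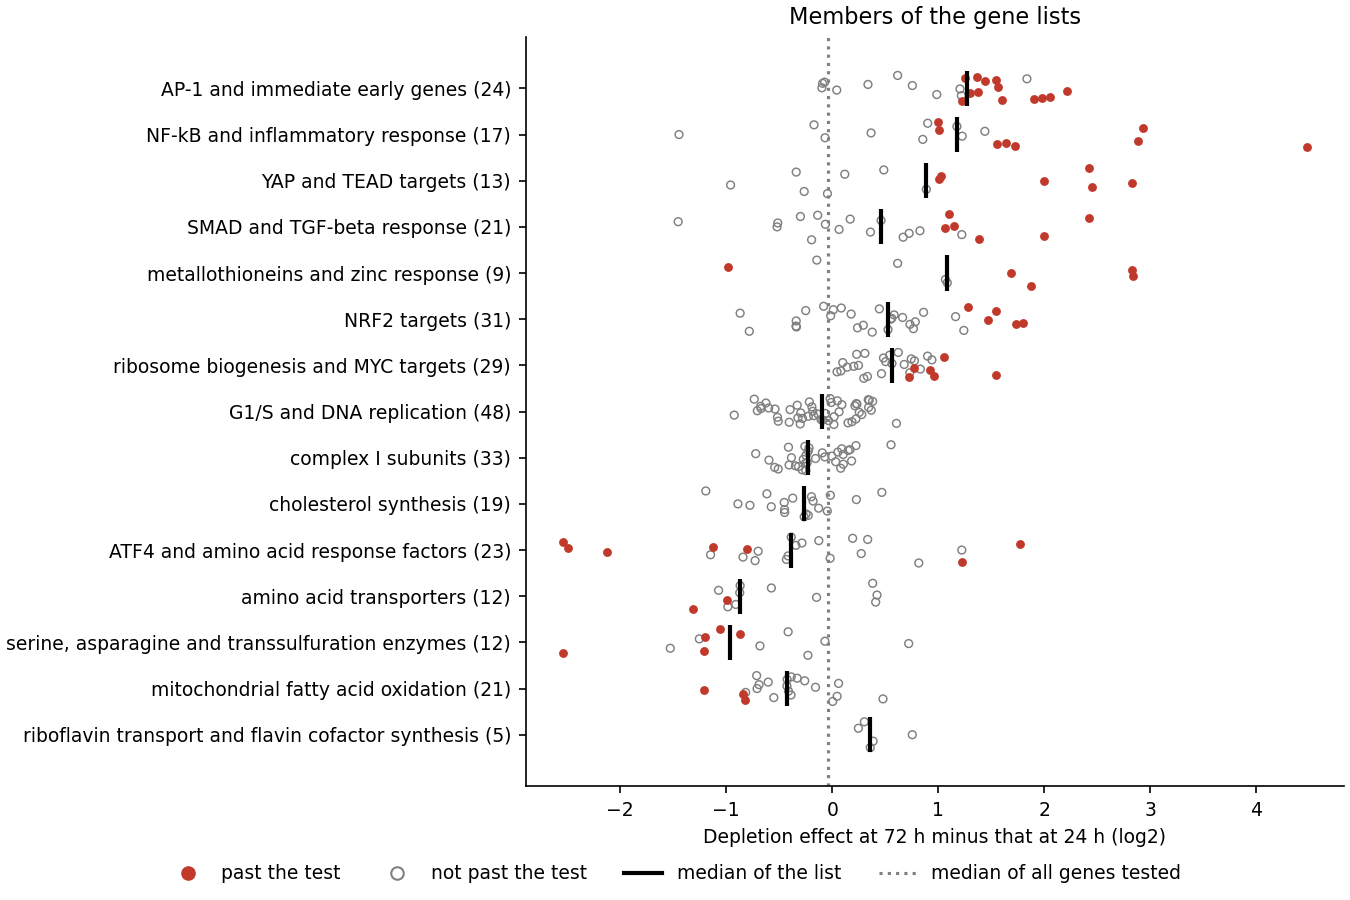
Difference of the depletion effect, 72 h minus 24 h (log2), for each measured member of 15 gene lists, with the number measured in brackets. Filled points passed the test, open points did not, the bar is the list median and the dotted line the median of all genes tested (-0.04). AP-1 and NF-kB genes lie mostly at the right, with medians of 1.28 and 1.18, and serine, asparagine and transsulfuration enzymes at the left, with a median of -0.96.

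Genes of the amino acid response went the opposite way, and here it was mainly the control cells that moved. Of 12 serine, asparagine and transsulfuration enzymes, 5 had a lower effect at 72 h and 0 a higher one, with 1 higher at an unadjusted p under 0.05, and the median difference was -0.96. The list median of the effect was 0.67 at 24 h, -0.06 at 48 h and -0.46 at 72 h. The median change over time was 0.02 in depleted cells and 0.95 in control cells. Of the 5, 3 changed in control cells only, 1 in both media in opposite directions and 1 in neither by the test. Without the set term 1 of the 5 passed.

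ASNS, which makes asparagine, gave 2761, 1969.9 and 2298 in depleted cells and 2409.7, 1632 and 2113 in control cells at 72 h. In the 24 h arrays it gave 2611, 2131 and 1936 in depleted cells and 1107, 705 and 715 in control cells. Only the control arrays at 24 h stood apart, below the other 3 groups. The effect was 0.20 at 72 h and 1.41 at 24 h, and the difference was -1.21 (SE 0.20, adjusted p = 0.00498), with 0.07 in depleted cells and 1.28 in control cells. In the fit without a set term, the adjusted p was 0.2.

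ALDH1L2, which oxidises formyl-tetrahydrofolate in mitochondria, reversed. Its signals were 81.6, 67.1 and 53.5 in depleted cells and 191, 159.9 and 143 in control cells at 72 h. They were 120.0, 125 and 107 in depleted cells and 38.5, 29.9 and 33.3 in control cells at 24 h. The order of the groups was opposite at the 2 times and no arrays overlapped. The difference was -2.54 (SE 0.18, adjusted p = 2.17e-05), with a change of -0.69 in depleted cells and 1.85 in control cells.

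PSAT1 and SHMT2, which lead from glycolysis to serine and on to glycine, also reversed, by -1.20 (SE 0.19, adjusted p = 0.00403) and -1.06 (SE 0.20, adjusted p = 0.0106). SHMT2 read 1079, 1508 and 1234 in depleted cells and 1489, 2278 and 1627 in control cells at 72 h, and 1094, 1178 and 1037 in depleted cells and 633, 826 and 749 in control cells at 24 h. At 72 h its groups overlapped across sets, although in each set the control array was the higher. PSPH, the last enzyme of serine synthesis, differed by -0.87 (SE 0.21, adjusted p = 0.0316). With no set term in the fit, PSAT1 (adjusted p = 0.0645) and SHMT2 (0.151) did not pass.

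The ASNS promoter is shown for the amino acid response. It spans chr7:97872359-97872658 on the minus strand of GRCh38.p14 (RefSeq), and capitals mark its 1 match, on either strand, to the C/EBP-ATF response element TGATGNAA.
ASNS: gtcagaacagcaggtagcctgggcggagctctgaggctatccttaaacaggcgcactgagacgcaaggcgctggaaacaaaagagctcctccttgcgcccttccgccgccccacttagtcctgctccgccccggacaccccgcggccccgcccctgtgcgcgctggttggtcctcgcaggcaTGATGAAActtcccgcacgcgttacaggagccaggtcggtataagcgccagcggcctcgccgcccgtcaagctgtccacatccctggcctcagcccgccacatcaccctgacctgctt
The element stood in 2 of 8 list members with a promoter, against 3.62% of all promoters.

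The factors of the same response split. Of 23, 5 had a lower effect at 72 h and 2 a higher one, and the median effect was 0.74 at 24 h, 0.33 at 48 h and 0.24 at 72 h. DDIT4, a stress-induced inhibitor of mTORC1, gave 771, 642 and 1058 in depleted cells and 530.3, 830.0 and 539.6 in control cells at 72 h. Its 24 h signals were 761, 703 and 912 in depleted cells and 168, 96.4 and 123 in control cells. The control arrays at 24 h were below the other 3 groups, which overlapped. The difference was -2.13 (SE 0.40, adjusted p = 0.0109), with a change of 0.03 in depleted cells and 2.16 in control cells.

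STC2, a secreted glycoprotein of stressed cells, reversed by its brightest probe set. It gave 207, 235 and 238 in depleted cells and 398, 545 and 386 in control cells at 72 h, and 481, 406 and 398 in depleted cells and 162, 122 and 101 in control cells at 24 h. The groups were apart at both times in opposite order, and the difference was -2.54 (SE 0.29, adjusted p = 0.00071). A second STC2 probe set, nearly as bright (mean log2 of 8.02 against 8.17), gave -0.29 (adjusted p = 0.638) and no reversal. Its effect was 0.59 at 24 h and 0.30 at 72 h, with changes of 0.55 in depleted cells and 0.84 in control cells. INHBE, an activin subunit, faded by -2.49 (SE 0.44, adjusted p = 0.00772), with control signals of 41.5, 1.9 and 9.1 at 24 h, of which 2 were under 19.6. HERPUD1, of endoplasmic reticulum quality control, and KLHL24, an adaptor of a ubiquitin ligase, faded by -0.80 (SE 0.18, adjusted p = 0.0237) and -1.12 (SE 0.25, adjusted p = 0.0238). In the other direction PPP1R15A, which restarts translation after stress, and ATF3, a stress factor of the ATF family, grew by 1.77 (SE 0.40, adjusted p = 0.0249) and 1.22 (SE 0.30, adjusted p = 0.0328). When the fit had no set term, INHBE (adjusted p = 0.0931) and HERPUD1 (0.581) did not pass, and 2 of the 5 lower and 0 of the 2 higher factors did.

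Amino acid transporters and mTORC1 brakes shared the downward direction. Of 12 transporters 2 were lower and 0 higher, also 0 higher at an unadjusted p under 0.05, with a median of -0.87. These were SLC1A4, a carrier of neutral amino acids (-1.32 (SE 0.28, adjusted p = 0.018)), and SLC38A1, a glutamine carrier (-0.99 (SE 0.20, adjusted p = 0.0129)). Probe sets of SLC1A4 disagreed, with 2 others at -2.49 and -2.04 past the test and 2 near 0. Without the set term SLC1A4 (adjusted p = 0.0775) and SLC38A1 (0.217) did not pass. Of 18 mTORC1 brakes and sensors 3 were lower and 0 higher, with 4 lower and 0 higher at an unadjusted p under 0.05 and a median of -0.43. SESN3, a sestrin that restrains mTORC1, reversed by -2.0 (SE 0.27, adjusted p = 0.00217), with 3 dimmer probe sets at -0.20 to -1.69 that did not pass. TSC1, a subunit of the tuberous sclerosis complex, differed by -0.75 (SE 0.19, adjusted p = 0.0422), and 14 of 18 fits that left out an array lost it, as did the fit without the set term (adjusted p = 0.239). Of 17 cytosolic aminoacyl-tRNA synthetases 0 passed the limma test, with 6 lower at an unadjusted p under 0.05 and a median of -0.32.

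**Figure D4:**
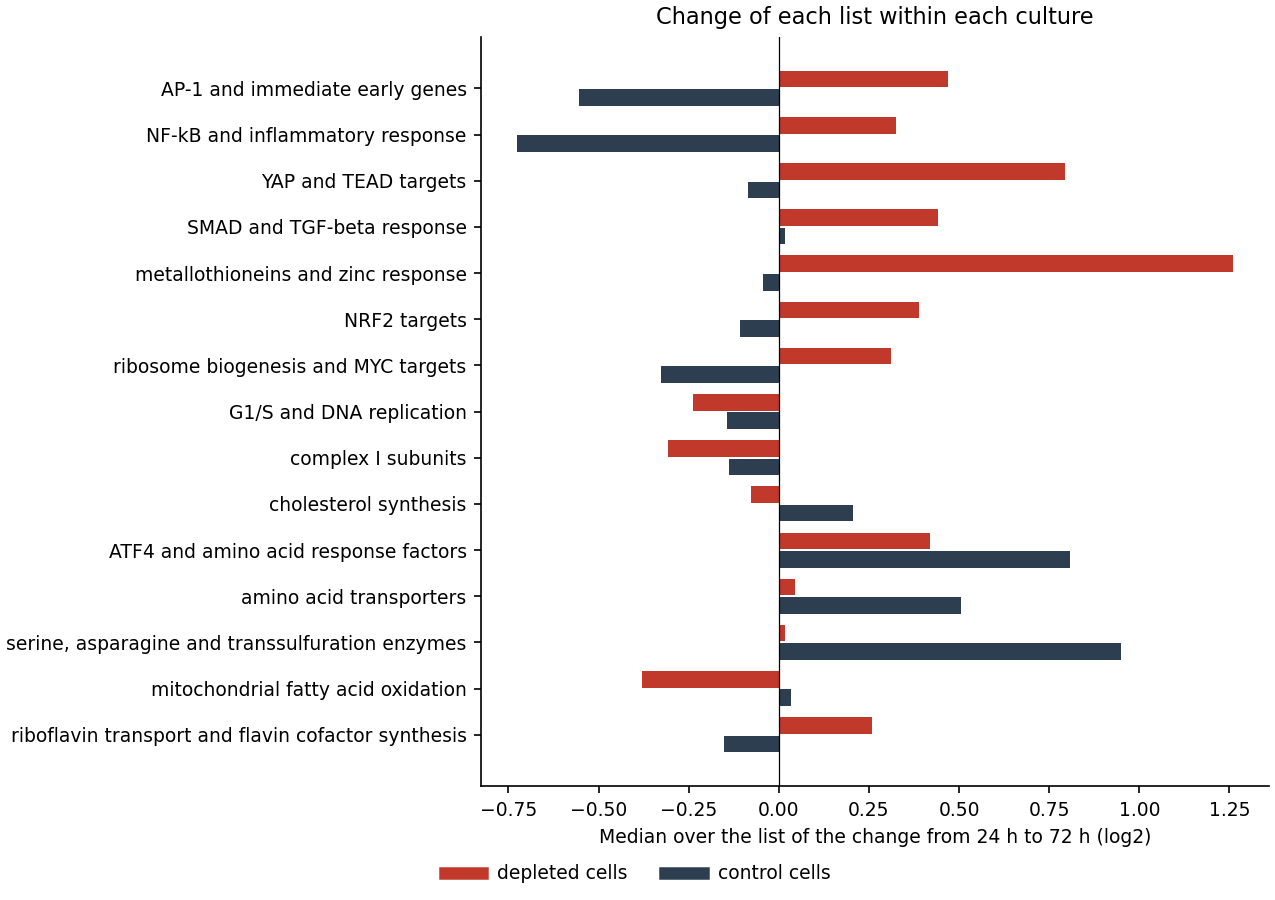
Median change from 24 h to 72 h (log2) over the measured members of 15 gene lists, in depleted cells (red, upper bar) and in control cells (dark blue, lower bar). Metallothioneins moved in depleted cells (1.26 against -0.04 in control cells), and serine, asparagine and transsulfuration enzymes in control cells (0.02 in depleted cells against 0.95).

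The growing falls were the largest class, with 300 genes, and it included genes of matrix, Wnt signalling and lipid transport. LAMA1, the laminin alpha 1 chain of basement membranes, gave 123, 46.7 and 53.9 in depleted cells and 698, 401 and 412 in control cells at 72 h. The earlier time gave 419, 247 and 176 in depleted cells and 479.6, 285 and 239.8 in control cells. The groups overlapped at 24 h and were apart at 72 h, with an effect of -0.26 at 24 h, -1.10 at 48 h and -2.57 at 72 h. The difference was -2.31 (SE 0.23, adjusted p = 0.000374), and without the set term its adjusted p was 0.052. In the list of matrix proteases and basement membrane genes, which does not hold LAMA1, 1 of 15 passed upward, MMP1, and 0 downward, with 3 lower at an unadjusted p under 0.05. This is 6.67% of the list, against 5.3% of all genes.

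ZNRF3, a ubiquitin ligase that removes Wnt receptors from the surface, gave 149, 182 and 164 in depleted cells and 474, 595 and 465 in control cells at 72 h. At 24 h it gave 488, 555 and 373 in depleted cells and 447, 526 and 401 in control cells. Depleted cells at 72 h were alone in being low, and the difference was -1.57 (SE 0.19, adjusted p = 0.001). ASCL2, a transcription factor of intestinal stem cells, differed by -0.89 (SE 0.21, adjusted p = 0.0255). The other 14 of the 16 stem cell and Wnt genes did not pass, so 12.5% passed, against 5.3% of all genes. APELA, a peptide ligand of the apelin receptor, GAS2, a protein of the actin skeleton, and RPGRIP1L, a protein of the ciliary base, differed by -2.59 (SE 0.50, adjusted p = 0.0114), -2.52 (SE 0.38, adjusted p = 0.00344) and -2.09 (SE 0.27, adjusted p = 0.00171). The receptors LRP11 and LY75 differed by -1.79 (SE 0.20, adjusted p = 0.000694) and -1.68 (SE 0.21, adjusted p = 0.00116), and DENND5B, a regulator of vesicle traffic, by -1.94 (SE 0.25, adjusted p = 0.00151). The depleted arrays of RPGRIP1L at 72 h read 19.0, 5.0 and 8.6, all under 19.6, and its difference ran from -3.20 to -1.11 over the settings tried. One DENND5B probe set of 3 others leaned the same way without passing, and 2 had positive values. With no set term in the fit, ASCL2 (adjusted p = 0.286) and APELA (0.0781) did not pass.

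Lipid and absorption genes were among the growing falls, and APOB and FABP1 had passed the test as falls already at 24 h. APOB, the protein of chylomicrons and low-density lipoprotein, gave 432, 179 and 383 in depleted cells and 1275, 761 and 1347 in control cells at 72 h. The 24 h values were 967, 499.6 and 965 in depleted cells and 1585, 784 and 1639 in control cells. Its groups were apart at 72 h within and across sets, and overlapped across sets at 24 h. The effect of -1.76 at 72 h and -0.70 at 24 h differed by -1.07 (SE 0.17, adjusted p = 0.00483). FABP1, the fatty acid binding protein of liver and gut, differed by -1.41 (SE 0.36, adjusted p = 0.0407), and SI, the brush border sucrase-isomaltase, by -1.17 (SE 0.26, adjusted p = 0.0202). SI rose in control cells (0.83, adjusted p = 0.0455), while depleted cells changed by -0.35. A dimmer FABP1 probe set gave 0.25. None of the 3 passed without the set term (adjusted p = 0.554, 0.611 and 0.174).

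Of 22 enterocyte genes 3 were lower and 2 higher, and of 18 liver-type secreted proteins 3 were lower (APOB, FGA and FGG) and 0 higher, also 0 higher at an unadjusted p under 0.05. FGG, the fibrinogen gamma chain, gave 1027, 429.5 and 649 in depleted cells and 3681, 2196 and 2739.5 in control cells at 72 h. Signals at 24 h were 1681, 1244 and 1158 in depleted cells and 3049, 2614 and 2328 in control cells. Depleted cells were below all control arrays at both times, and the difference of -1.09 (SE 0.29, adjusted p = 0.0489) was lost in 14 of 18 fits that left out an array, as was that of FGA in 15. Neither passed without the set term (adjusted p = 0.387 for FGG and 0.526 for FGA). Summed over 11 hepatocyte markers found, signals were 4486.6 to 7289.8 in depleted cells and 11780.2 to 16659.9 in control cells at 72 h. At 24 h the sums were 5190.7 to 7729.5 in depleted cells and 9763.7 to 12953.8 in control cells. APOB, FGA and FGG are themselves among these markers. In bulk RNA, fewer cells that express such genes and less RNA per cell cannot be told apart.

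Fatty acid oxidation followed with 3 lower and 0 higher of 21 genes, 0 higher at an unadjusted p under 0.05, and a median of -0.43. CPT2, which brings acyl groups into mitochondria, gave 70.9, 108 and 74.3 in depleted cells and 184, 204 and 167 in control cells at 72 h, without overlap. In cells taken at 24 h it gave 159.9, 163 and 126 in depleted cells and 151, 141 and 97.7 in control cells, with overlap, and the difference was -1.21 (SE 0.25, adjusted p = 0.0171). ACADM, the FAD-dependent medium-chain acyl-CoA dehydrogenase, and ACSL1, an acyl-CoA synthetase, differed by -0.82 (SE 0.21, adjusted p = 0.0379) and -0.84 (SE 0.19, adjusted p = 0.0267). Neither of these passed without the set term, nor did CPT2 (adjusted p = 0.126 for CPT2, 0.455 for ACADM and 0.484 for ACSL1).

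The list of enzymes that use FAD or FMN showed no common direction. Of 53 measured, 2 were higher (TXNRD1 and AIFM2) and 2 lower (PCYOX1 and ACADM), which is 7.55% against 5.3% of all genes, with a median of -0.01. This list does not hold NOX1, the FAD enzyme named above, whose effect was higher by 2.40 (adjusted p = 0.000168), so the counts leave it out. PCYOX1, which degrades prenylcysteine, gave 578, 616 and 561 in depleted cells and 1429.5, 1622 and 1152 in control cells at 72 h. In the 24 h arrays it gave 1384, 1713 and 1071 in depleted cells and 1407, 1759.6 and 1098 in control cells, at nearly the same levels set by set. The difference was -1.19 (SE 0.19, adjusted p = 0.00442), and a dimmer probe set gave -0.34 (adjusted p = 0.696). AIFM2, a reductase of coenzyme Q at membranes, differed by 1.01 (SE 0.24, adjusted p = 0.0286), and a dimmer probe set gave -0.24 (adjusted p = 0.679). When the fit had no set term, none of the 4 list members passed.

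The genes that handle riboflavin itself did not pass the test. Of 5 measured, 0 passed in limma and 1, SLC25A32, had an unadjusted p under 0.05. SLC25A32, the mitochondrial carrier of folate and FAD, gave 341, 397 and 398 in depleted cells and 317, 236 and 301 in control cells at 72 h. At 24 h it gave 289, 201 and 264 in depleted cells and 298, 283 and 396 in control cells, and the difference was 0.76 (SE 0.21, adjusted p = 0.0623). The differences were 0.39 for the riboflavin kinase RFK and 0.36 for FLAD1, which makes FAD. They were 0.25 and 0.30 for the riboflavin transporters SLC52A2 and SLC52A3, with adjusted p between 0.337 and 0.799 for these 4 genes. A second FLAD1 probe set had the opposite sign and a larger size without passing (-0.82, SE 0.31, adjusted p = 0.164).

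**Figure D5:**
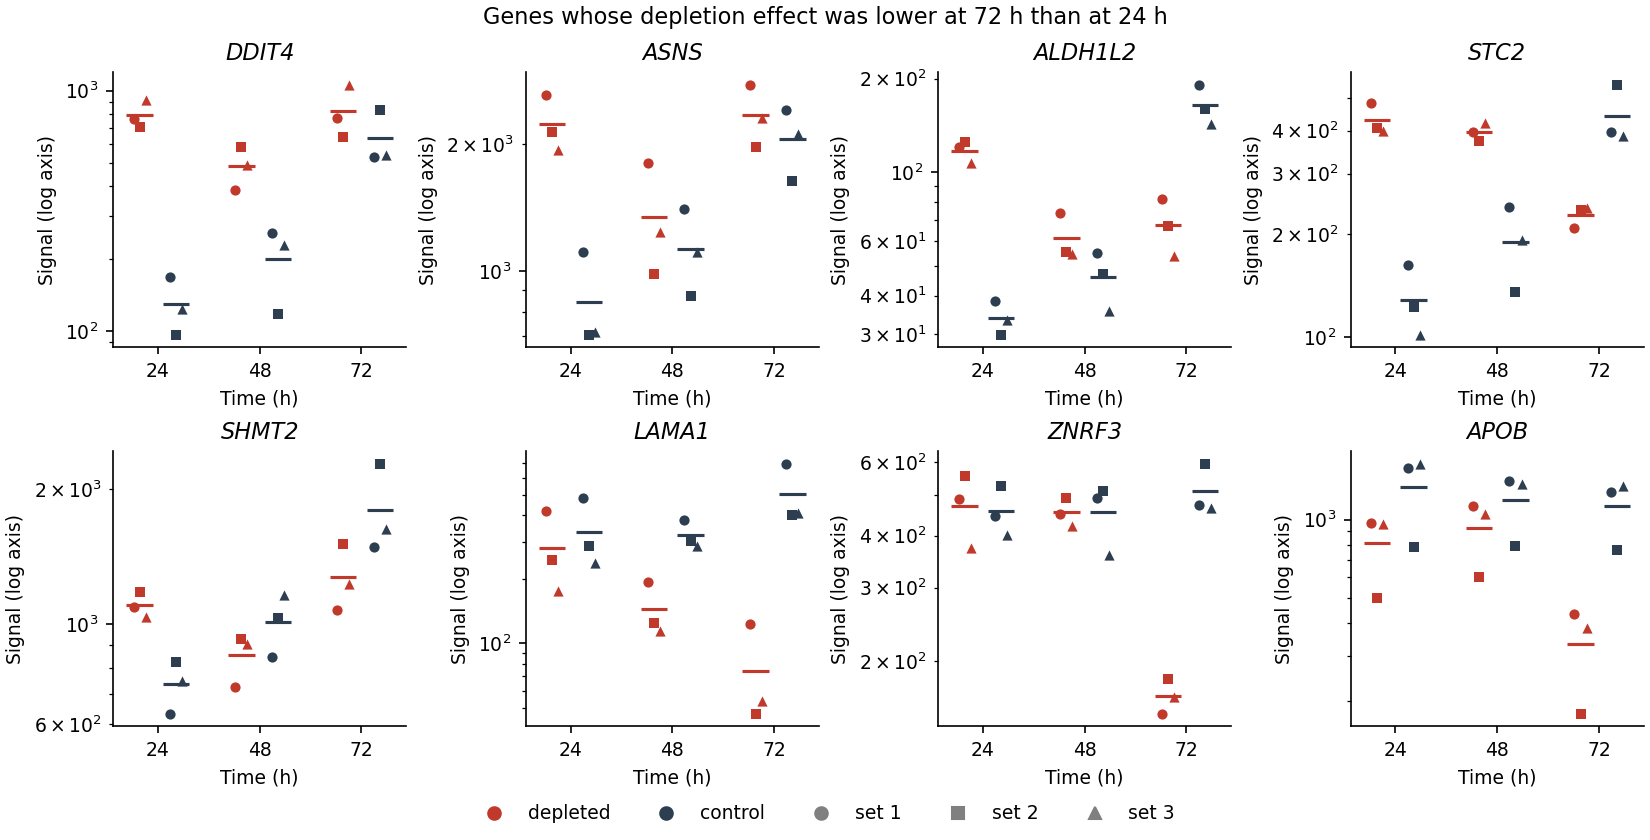
Signals (log axis) of 8 genes against time in h, depleted cells in red at the left of each time and control cells in dark blue at the right; symbols mark the sets and bars the mean of 3 arrays. In DDIT4 and ASNS the control arrays at 24 h are the lowest and both media meet at 72 h, and in LAMA1 and ZNRF3 the depleted arrays at 72 h are the lowest.

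Downward reversals outside the amino acid response included C1RL, a serine protease related to complement C1r. It gave 27.5, 34.2 and 35.5 in depleted cells and 109, 68.7 and 127 in control cells at 72 h. The earlier time gave 156, 127 and 182 in depleted cells and 87.8, 55.1 and 97.0 in control cells. The groups were apart at both times in opposite order, and the difference was -2.10 (SE 0.23, adjusted p = 0.00071), with the larger change in depleted cells (-1.81, against 0.28 in control cells). ASPA, which splits N-acetylaspartate, and NEBL, an actin-binding protein, moved in both media, with differences of -2.36 (SE 0.29, adjusted p = 0.00111) and -1.82 (SE 0.19, adjusted p = 0.000447). ZMAT3, an RNA-binding p53 target, fell in depleted cells only (-1.34) and differed by -1.44 (SE 0.22, adjusted p = 0.00344). Other probe sets did not pass for C1RL (-0.39), for 4 of ZMAT3 (-0.68 to 0.58) and for 2 of 3 of NEBL. In the fit without a set term, ZMAT3 had an adjusted p of 0.0888.

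Effects that faded had begun on both sides. MMP1, an interstitial collagenase, was the strongest fading fall. It gave 460.4, 313 and 334 in depleted cells and 441, 247 and 277 in control cells at 72 h. On the 24 h arrays it stood at 194, 173 and 115 in depleted cells and 887, 1020.3 and 753 in control cells. The groups were apart at 24 h and overlapped at 72 h. They were also apart at 48 h, with 483, 310.5 and 340.5 in depleted cells and 1028, 1173 and 632 in control cells (effect -1.26, adjusted p = 0.0153). From 24 h to 72 h both moved toward each other, by 1.13 in depleted cells and -1.45 in control cells, for a difference of 2.58 (SE 0.30, adjusted p = 0.000721). REG4, a secreted lectin of the gut, and TFF1, a trefoil peptide of mucus, faded likewise (1.74 (SE 0.20, adjusted p = 0.000806) and 1.03 (SE 0.26, adjusted p = 0.0403)). They were the 2 of 10 secretory and goblet genes that passed, none of which was lower; 1 was lower at an unadjusted p under 0.05. CLPB, a mitochondrial disaggregase, NR2C2AP, a nuclear receptor binding protein, and JCAD, a junctional protein, faded from falls as well (1.41, 1.23 and 1.14). Depleted arrays of JCAD lay below all control arrays at 24 h and above all of them at 72 h, where its effect did not pass the test. Without the set term the calls of REG4 (adjusted p = 0.0673), TFF1 (0.218), CLPB (0.186), NR2C2AP (0.149) and JCAD (0.0761) were lost.

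Among the fading rises GPAM, which starts glycerolipid synthesis, gave 324, 324 and 352 in depleted cells and 468, 471 and 387 in control cells at 72 h. The 24 h values were 635, 729.5 and 475 in depleted cells and 319, 327 and 210.3 in control cells. Depleted cells were below all control arrays at 72 h and above all of them at 24 h, and the difference was -1.45 (SE 0.23, adjusted p = 0.00455). The fading rises NHSL1, a regulator of cell migration, ZBTB44, a zinc finger protein, and the antisense RNA HECW2-AS1 differed by -1.24, -1.31 and -1.36. KCNAB2, a potassium channel subunit, and CDKN1C, an inhibitor of cyclin-dependent kinases, differed by -2.02 and -1.30. KCNAB2 had control signals of 7.7, 2.5 and 3.8 at 24 h, all under 19.6, and its difference ran from -4.12 to -0.86 over the settings tried. None of these 5 passed without the set term, and CDKN1C was lost in 10 and KCNAB2 in 4 of 18 fits that left out an array.

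In the growth and mitochondrial lists few genes passed the test of the difference between the times. Of 48 genes of G1/S and DNA replication 0 passed in limma, with 1 higher and 5 lower at an unadjusted p under 0.05. Their median effect was -0.36 at 24 h, -0.27 at 48 h and -0.43 at 72 h, and the effect itself was lower in depleted cells for 13 genes at 72 h and for 5 at 24 h. Of 46 mitosis genes 2 were higher, ECT2 and KIF23 (0.83 and 1.03), and 2 lower, ASPM and NDC80 (-0.81 and -0.90), with a median of -0.11. This is 8.70% of the list, against 5.3% of all genes. None of the 4 passed without the set term (adjusted p = 0.187, 0.47, 0.203 and 0.596), and fits that left out an array lost them in 7, 10, 6 and 14 of 18. Another ASPM probe set gave 0.55 without passing. Of 33 complex I subunits 0 passed in limma (1 higher and 4 lower unadjusted, median -0.23), while the effect itself was lower in depleted cells for 13 at 72 h and for 1 at 24 h. Of 34 subunits of complexes II to V 0 passed (1 lower unadjusted, median 0.04), and the effect was lower for 8 at 72 h and for 2 at 24 h.

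Of 19 cholesterol synthesis genes 0 passed in limma (1 higher and 6 lower unadjusted), although 17 of the 19 differences were negative. The effect itself was lower in depleted cells for 12 of them at 72 h and for 2 at 24 h, and its median was -0.34 at 24 h, -0.29 at 48 h and -0.79 at 72 h. Of 15 interferon response genes and 10 replication-dependent histones 0 passed, also unadjusted. Of 14 heat shock genes and 5 keratins 0 passed, with 3 and 1 higher unadjusted. Fatty acid and triglyceride synthesis had 2 lower of 19 (GPAM and DGAT1, the last step of triglyceride synthesis, -1.15). Lipid droplet and PPAR targets had 3 lower of 10, among them G0S2, an inhibitor of lipolysis (-1.04). Of 24 unfolded protein response genes 2 were lower, HERPUD1 and SEL1L (-1.04). Of 26 lysosome genes 1 was lower, HEXA (-0.73), and of 21 iron and haem genes 1, ALAD, an enzyme of haem synthesis (-1.34), whose second probe set gave 0.14. Of 17 cytochrome P450 and aldehyde dehydrogenase genes 2 were lower, ALDH5A1 and ALDH6A1 (-1.30 and -1.0), and 0 higher, with 3 higher unadjusted. Of 14 CDK inhibitors and p53 targets 2 were higher and 2 lower, all 4 named above. Over all genes 5.3% passed. The share was 10.5% for fatty acid and triglyceride synthesis, 30.0% for lipid droplet and PPAR targets and 8.33% for the unfolded protein response. It was 3.85% for lysosome genes, 4.76% for iron and haem, 11.8% for cytochrome P450 and aldehyde dehydrogenases and 28.6% for the last list. Without the set term DGAT1 (adjusted p = 0.296), G0S2 (0.576), SEL1L (0.219), HEXA (0.273), ALAD (0.0549) and ALDH6A1 (0.265) did not pass. Fits that left out an array lost DGAT1 and HEXA in 14 of 18 and G0S2 in 10.

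The 48 h arrays, which the comparison did not use, gave the depletion effect at an intermediate time. It lay between the 24 h and the 72 h effect for 529 of the 653 genes (81.0%), against 39.8% of all genes, and the choice of genes that differ between the ends favours this. At 48 h 100 genes passed the test of the effect (0.812%). The growing rises had a median effect of -0.10 at 24 h, 0.02 at 48 h and 1.08 at 72 h, and the growing falls of 0.23, -0.08 and -0.93, so most of the change lay after 48 h. Fading rises had 0.93, 0.43 and -0.21 and fading falls -0.94, -0.24 and 0.23, with the change spread over both intervals. Control cells at 48 h were nearer to those at 24 h than at 72 h for NPPB and CXCL8. NPPB gave 717, 319.6 and 801 at 24 h, 982, 433 and 958 at 48 h and 53.9, 75.1 and 113 at 72 h, and CXCL8 gave 134, 206 and 44.6, 87.2, 97.1 and 27.2 and 8.6, 4.5 and 3.0 at these times.

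The labelled cell type was checked against markers. All 10 intestinal epithelial markers were above the filter for low signals, and their summed signal was 19558.3 to 27908.4 in depleted cells and 18731.5 to 27970.9 in control cells at 72 h. Mean signals were highest for EPCAM (6549.65), KRT18 (6104.1), CDH1 (4043.9) and KRT8 (3262.96). KRT20 (21.23) and CDX1 (20.22) were only just above the filter. Leukocyte markers summed to 401.5 to 506.4 in depleted cells and 320.6 to 342.1 in control cells at 72 h, with 8 of 10 found, 5 above the filter, and PTPRC, TYROBP and HLA-DRA at mean signals of 6.13, 6.7 and 5.41. The highest of them were LYZ (186.13), CD14 (81.57) and CSF1R (57.7). Fibroblast markers, 8 of 12 above the filter, summed to 965.2 to 1086.5 in depleted cells and 1206.4 to 1432.9 in control cells at 72 h. Goblet markers, 4 of 8 above the filter, summed to 3925.4 to 4205.7 in depleted cells and 3489.4 to 4338.1 in control cells at 72 h. Most of this signal was AGR2 (mean 3781.23), while MUC2 and ATOH1 stood at 15.87 and 6.47. Of 6 enteroendocrine markers 5 were found and 1 was above the filter. No member of the epithelial, enteroendocrine, fibroblast or leukocyte lists passed the limma test of the difference (3, 0, 1 and 2 at an unadjusted p under 0.05). The part of these markers in the results above was not tested.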

How the data were processed

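The values were intensity signals that the authors deposited, computed with MAS5 per the submitters' processing notes, which give no version. Each array's mean signal, trimmed by 2% at each end, was 100.01. The table held 54675 probe sets on 18 arrays, 0 pairs of arrays were identical and no column was left unused. Raw scanner intensities and detection calls were not used here.

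Signals were used as log2(signal + 16), keeping the deposited scaling. The 62 control probe sets were dropped, as were probe sets whose mean log2 value lay under the median of 5.15 (a signal of 19.6), so 27307 were tested. The platform annotation gave 1 symbol to 41091 probe sets, several to 1801 and none to 11721, and those with 1 symbol were named. Compared by Entrez ID with RefSeq (GRCh38.p14), 41043 were found and 0 changed. A gene was its probe set with the highest mean, which gave 12319 genes.

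One limma model (version 3.58.1, R 4.3.3) took in all 18 arrays, with 6 group means and the set as a block. Benjamini-Hochberg adjustment ran over the 27307 probe sets, separately for each comparison, with a threshold of 0.05. The prior degrees of freedom were 3.62 and the residual ones 10. The pairing comes from the sample numbers. It was checked on deviations from group means, which for 45 pairs of arrays of the same set had correlations of 0.30 to 0.60, and for 108 pairs of different sets -0.75 to 0.16. On simulated data of this comparison, over 27307 probe sets, 24 of 100 changes of log2 size 1 and 68 of 100 of size 2 were recovered, with 4 false calls.

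The members and lists were chosen with earlier results of these data known. Genes were named by a rule: the 12 largest differences in each direction with the same sign in all sets, up to 5 of each class with the smallest p, up to 4 passing members of each of 42 lists, and the riboflavin genes. Further passing members of a list were named after their values were seen, and the hepatocyte and goblet sums used markers added beside the lists. Alternatives were the fit without the block, with the set as random block or with 12 arrays, other pseudocounts, filters and scalings, and fits without each array or set. Python 3.11.15 with matplotlib 3.10.9 drew the figures.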

Additional observations from a re-analysis of the deposited data

Results flagged for a closer look

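The depletion effect differed between 72 h and 24 h by the test of the difference itself for 653 genes, and for 28 of them the effect passed the test with opposite signs at the 2 times. Among the genes named, the upward reversals were NPPB (4.78), CCL20 (4.48), CXCL8 (2.88), NOX1 (2.40), IER3 (1.57) and CXCL2 (1.56), in log2 units of effect at 72 h minus effect at 24 h. The downward reversals were SHMT2 (-1.06), PSAT1 (-1.20), ZMAT3 (-1.44), NEBL (-1.82), SESN3 (-2.0), C1RL (-2.10), ASPA (-2.36), ALDH1L2 (-2.54) and STC2 (-2.54). Each was judged by its brightest probe set, and a second STC2 probe set of nearly the same brightness had positive effects at both times. Without the set term 3 genes reversed in place of 28. The 48 h arrays lie outside the comparison, and the depletion effect there passed the test for 100 genes.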

How the results depend on the processing

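The number of probe sets whose effect differed, 1251, was 176 without the replicate block and 711 with the 12 arrays of 24 h and 72 h only. It was 517 with no filter on low values, and other filters, pseudocounts, scalings and the set as random block gave 1053 to 1769. Leaving out 1 array gave 640 to 1350, and 6 of 18 such fits fell by over 1.5 times: without control 72 h array 1 (640) or 3 (789), depleted 72 h array 1 (673), control 24 h array 3 (676) and depleted 24 h array 1 (773) or 2 (795). Leaving out a set gave 2 to 582. The effect at 72 h (3631 probe sets) gave 1136 without the replicate block, 2273 with no filter, 2135 to 3799 without 1 array and 349 to 2853 without a set. The effect at 24 h (646) gave 59 without the replicate block, 253 with 12 arrays, 1137 with a pseudocount of 64, 205 with no filter and 1443 with the filter at the upper quartile. It gave 214 to 738 without 1 array and 0 to 232 without a set, where the 0 stands beside 2919 probe sets at an unadjusted p under 0.05 in limma. In depleted cells the change over time (2812) gave 565 without the replicate block, 1454 with no filter, 1424 to 3040 without 1 array and 4 to 1852 without a set. The change in control cells (332) gave 32 without the replicate block, 130 with 12 arrays, 585 with a pseudocount of 64, 135 with no filter and 736 with the filter at the upper quartile. It gave 114 to 348 without 1 array and 0 to 91 without a set, the 0 beside 2632 unadjusted. The causes of these shifts were not tested. Of the 97 named genes that passed, 37 passed without the replicate block and 67 passed in each of the 18 fits without 1 array. Of the 79 with a value in all 8 other settings 53 passed in each, and of the 18 removed by the filter at the upper quartile 12 passed in each of the other 7. None of the 97 changed sign in any of these fits. By class, the fit without the block left 70 growing, 4 fading and 3 reversing genes of 88.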
